A study of Homo sapiens with 38 samples.

Results

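The transcription repressor BACH1, the activator NRF2 (gene NFE2L2) and 8 antioxidant genes that they are known to control (HMOX1, FTH1, NQO1, GCLC, GCLM, SLC7A11, TXNRD1 and SRXN1) were followed by RNA-seq in RKO cells, a human colorectal cancer line. These 10 genes were taken by symbol out of 25504 uniquely named genes, because a BACH1 motif is among those the study names for regions that gained H3K27 acetylation with one of its compounds. The rule takes them by name and uses no expression value, although earlier results of these data were known when they were chosen. Cells received 0.1% dimethylsulfoxide (DMSO) alone, or with it 2 µM of 1 of 3 compounds. NCD38 inhibits LSD1, a demethylase of histone H3 lysine 4. NCD38-β2P4 and NCD38-β2PIPP (P4_NCD38 and PIPP_NCD38 in the labels) are NCD38 joined through a β-alanine linker to a pyrrole-imidazole polyamide, a small molecule that reads the DNA minor groove. The polyamide of NCD38-β2P4 holds pyrroles alone and was designed for A/T runs, and in NCD38-β2PIPP an imidazole takes the place of 1 pyrrole, for sites with a CG in an A/T run. Cells were collected on day 30, with medium and compound renewed every 5 days, or on day 4. For day 4 the study's methods print the concentration in mM where the labels give 2 µM, so the day 4 dose is uncertain. Each of the 8 conditions is 1 library, and no unconjugated polyamide was given for RNA.

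BACH1 and NRF2 belong to the same CNC family of basic leucine zipper factors, and both pair with small MAF proteins to bind antioxidant response elements. BACH1 represses there until heme binds it and drives it off. NRF2 is held back by KEAP1, which hands it to a CUL3 ubiquitin ligase until oxidants or electrophiles modify KEAP1, and it then switches on genes of heme breakdown, glutathione, thioredoxin and NADPH metabolism.

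The elements themselves can be shown for the genes in which the reference genome holds them close to the start. The full form, TGACTCA directly followed by GCA, which BACH1 and NRF2 bind with their small MAF partners, was searched on both strands in the 5 kb before the start of each gene's GENCODE canonical transcript in GRCh37, and was found in 1.75% of 9152 expressed genes. Of the 10 genes, HMOX1, FTH1 and NQO1 had 1 match each. The looser core, TGAC and GCA with any 3 bases between them, which includes the full form, was present in 46.3% of these windows, and 7 of the 10 genes had it. NFE2L2, SLC7A11 and SRXN1 had neither in that window. In the RefSeq promoters (GRCh38.p14, 250 bases before the start) the looser core was present in 2.59% of 35116 promoters, and among the 7 genes with such a promoter GCLM and TXNRD1 had it. The canonical transcript can start inside the span of the gene, as for HMOX1 (35777089) and NQO1 (69760463). These 5 stretches are given below 5′ to 3′ on the gene's strand because they are the matches most like the consensus or nearest to a start. Capitals mark the match, which reads as its reverse complement in every stretch but that of NQO1.
HMOX1, GRCh37 chr22:35773123-35773182, plus strand, 3941 bases before the canonical start: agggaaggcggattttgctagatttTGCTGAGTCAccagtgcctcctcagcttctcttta
FTH1, GRCh37 chr11:61739490-61739549, minus strand, 4418 bases before the canonical start: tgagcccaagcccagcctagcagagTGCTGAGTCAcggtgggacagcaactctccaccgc
NQO1, GRCh37 chr16:69760884-69760943, minus strand, 455 bases before the canonical start: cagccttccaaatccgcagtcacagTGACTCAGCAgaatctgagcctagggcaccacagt
GCLM, GRCh38.p14 chr1:93909431-93909490, minus strand, 35 bases before the start of the RefSeq transcript: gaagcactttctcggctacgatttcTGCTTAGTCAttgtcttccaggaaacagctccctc
TXNRD1, GRCh38.p14 chr12:104286904-104286963, plus strand, 103 bases before the start of the RefSeq transcript: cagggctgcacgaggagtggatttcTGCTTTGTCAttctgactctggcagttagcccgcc
A match describes letters in the reference and is not evidence of binding in these cells.

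Expression is given as FPKM, a fragment count scaled by exon length and by the mapped fragments of the library, so levels can be set side by side between genes. Depth was estimated, from the FPKM values that single fragments give, at 1.24e+07 to 2.28e+07 fragments per library. Of all genes, 10865 had a mean FPKM of at least 1 and were tested, and all 10 genes were among them. The keratin genes KRT8 and KRT18 and the intestinal factor CDX2 were expressed in every library (6.58 to 19.0, 76.2 to 121 and 7.48 to 11.6 FPKM), while the epithelial gene EPCAM ranged from 0.0922 to 6.53 FPKM, the epithelial cadherin gene CDH1 stayed at 0 to 0.0642 FPKM and VIL1 was listed at 0 in all 8 libraries. Fibroblast, leukocyte and endothelial markers summed to at most 0.0801 FPKM in any library.

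The 10 genes spanned a range from FTH1, the heavy chain of the iron store ferritin, with a mean of 440 FPKM, to SLC7A11, the cystine importer, with 1.03 FPKM. SRXN1 (62.2) and HMOX1 (58.4), which code for sulfiredoxin and for the heme-degrading heme oxygenase 1, came next, followed by TXNRD1 (26.9), NQO1 (19.8), NFE2L2 (5.08), GCLC (3.33), BACH1 (1.95) and GCLM (1.58). Ranges overlapped between several neighbours in this order, among them SRXN1 and HMOX1, TXNRD1 and NQO1, and BACH1 and GCLM. FTH1 has many near-identical processed copies in the genome, so its value may include or lose fragments of these.

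**Figure D1:**
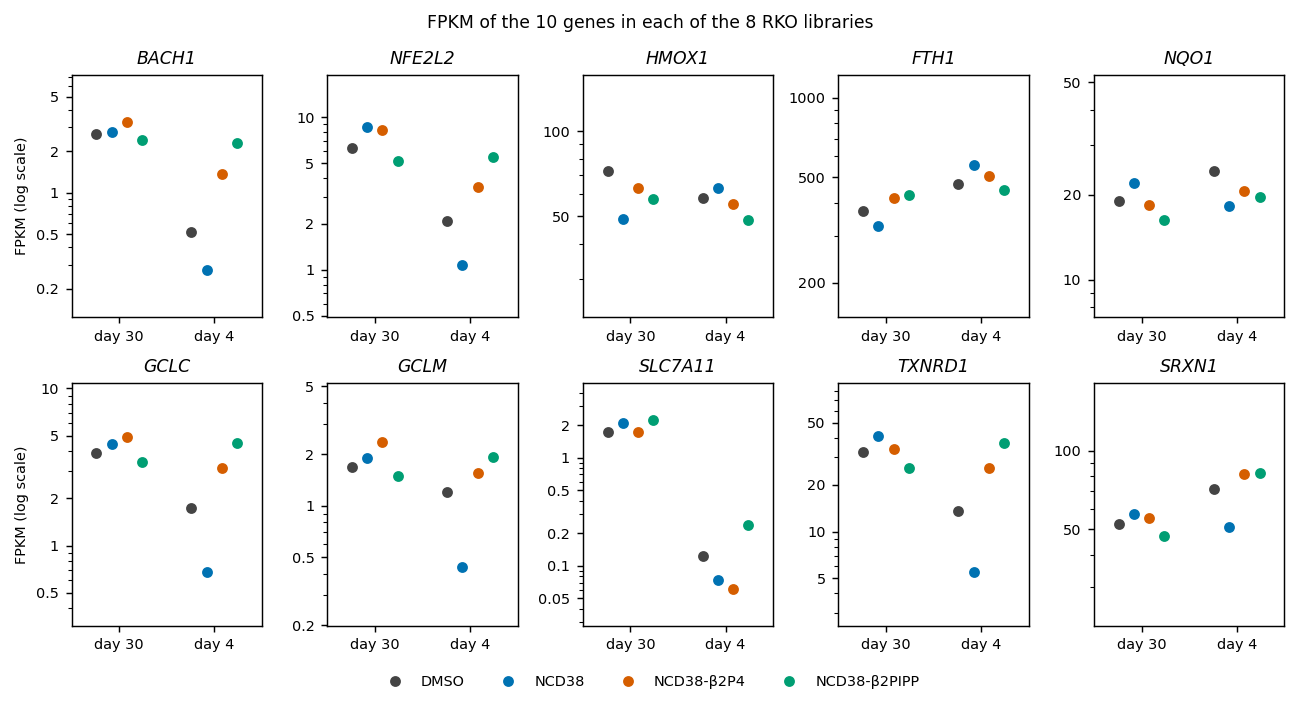
FPKM (log axis, scaled per panel) of the 10 genes in each of the 8 RKO libraries, with 1 point per library, colored by treatment and split by day. Day 30 libraries lie within 1.68-fold of one another for each gene, while on day 4 BACH1, TXNRD1 and GCLC spread over more than 6-fold and HMOX1, FTH1 and NQO1 over at most 1.33-fold.

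First, the regulators were examined. BACH1 (GRCh37 chr21:30566392-31003071, plus strand) was at 2.66 FPKM on day 30 in the DMSO library. It reached 2.79 under NCD38, 3.30 under NCD38-β2P4 and 2.41 under NCD38-β2PIPP. The day 4 libraries, in this same order of treatments (used for every gene that follows), were at 0.521, 0.275, 1.36 and 2.29 FPKM. All 4 day 30 libraries lay above all 4 day 4 libraries, but the NCD38-β2PIPP library of day 4 reached nearly the level of day 30. NFE2L2 (chr2:178083395-178257484, minus strand) showed the same order on day 4. Its values were 6.30, 8.68, 8.32 and 5.17 FPKM on day 30 and 2.10, 1.08, 3.49 and 5.52 FPKM on day 4, and here the days overlapped. In both genes, therefore, the lowest day 4 value was with NCD38, DMSO came next, and the conjugates were highest. The NFE2L2 transcript level was above that of BACH1 in all 8 libraries, by 2.14 to 3.11 times on day 30. On day 4 this ratio was 4.03 with DMSO and 3.93 with NCD38, and 2.57 and 2.41 with NCD38-β2P4 and NCD38-β2PIPP. BACH1 rests there on only about 51.0, 20.5, 97.5 and 178 fragments in the same order, and the ratio was not tested.

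The heme and iron targets behaved otherwise. HMOX1 (chr22:35776354-35790207, plus strand), the best known BACH1 target, was at 72.2 FPKM with DMSO on day 30 and lower under each compound, at 49.0 (NCD38), 63.0 (NCD38-β2P4) and 57.7 FPKM (NCD38-β2PIPP). These are 0.679, 0.873 and 0.799 times the DMSO value, with 95% counting intervals of 0.633 to 0.728, 0.813 to 0.937 and 0.752 to 0.850. The 3 ratios share 1 DMSO library, and the intervals cover counting error only. On day 4 HMOX1 was at 58.03, 63.3, 55.5 and 48.5 FPKM, and of the compounds only NCD38-β2PIPP had an interval below DMSO, at 0.836 times (0.773 to 0.904). FTH1 (chr11:61727190-61735106, minus strand) was at 373, 326, 416 and 427 FPKM on day 30. On day 4 it was at 470, 556, 507 and 447 FPKM, all above every day 30 value.

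NQO1 (chr16:69740899-69760571, minus strand), a quinone reductase and a classical NRF2 target, had the narrowest range with HMOX1 and FTH1. It was at 19.0, 22.04, 18.4 and 16.3 FPKM on day 30 and at 24.2, 18.2, 20.7 and 19.5 FPKM on day 4. With every compound the day 4 value was below that of DMSO, at 0.754, 0.855 and 0.808 times.

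In contrast, the glutathione and thioredoxin genes TXNRD1, GCLC and GCLM varied widely on day 4, while SRXN1 did not. TXNRD1 (chr12:104609557-104744085, plus strand) codes for cytosolic thioredoxin reductase, which recharges thioredoxin with NADPH. It was at 32.7, 40.9, 34.1 and 25.6 FPKM on day 30 and at 13.6, 5.45, 25.8 and 37.4 FPKM on day 4. The NCD38 library thus held the highest TXNRD1 value on day 30 and the lowest on day 4, and the reverse was seen for NCD38-β2PIPP within each day. GCLC (chr6:53362139-53481768, minus strand) codes for the catalytic subunit of glutamate-cysteine ligase, the first step of glutathione synthesis. It was at 3.89, 4.43, 4.90 and 3.39 FPKM on day 30 and at 1.73, 0.680, 3.12 and 4.51 FPKM on day 4. GCLM (chr1:94350755-94375012, minus strand), its modifier subunit, was at 1.69, 1.91, 2.37 and 1.5 FPKM and then at 1.20, 0.438, 1.56 and 1.93 FPKM. The GCLC to GCLM ratio was 2.07 to 2.31 on day 30 and 1.44, 1.55, 2.00 and 2.33 on day 4. This ratio was not tested, and with NCD38 on day 4 it rests on only about 34.1 and 28.3 fragments. The genes also differ in GC content (44.2% for GCLC and 37.3% for GCLM). SLC7A11 (chr4:139085251-139163503, minus strand) was at 1.72, 2.08, 1.73 and 2.21 FPKM on day 30 and nearly absent on day 4, at 0.123, 0.0739, 0.0615 and 0.236 FPKM, which correspond to about 7.57 to 31.4 fragments. SRXN1 (chr20:627259-633844, minus strand), which repairs overoxidized peroxiredoxins, was at 52.3, 57.5, 55.1 and 47.1 FPKM on day 30 and at 71.1, 51.0, 81.3 and 82.4 FPKM on day 4, with its lowest day 4 value again in the NCD38 library.

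The highest over the lowest FPKM within day 4 was 8.34 for BACH1, 6.86 for TXNRD1, 6.63 for GCLC, 5.11 for NFE2L2 and 4.41 for GCLM, against 1.24 to 1.62 for FTH1, HMOX1, NQO1 and SRXN1. Over all expressed genes above 0 in the 4 libraries the median was 1.82 on day 4 and 1.33 on day 30. A spread at least as large as that of BACH1 on day 4 was found for 3.02% of genes, and for TXNRD1 and GCLC the shares were 5.44% and 5.97%. For HMOX1 it was 79.7%. With each gene centred on its mean in each day, the log2(FPKM + 1) of BACH1 followed that of GCLC (Pearson r = 0.97 over 8 libraries), NFE2L2 (0.95), TXNRD1 (0.94), GCLM (0.90) and SRXN1 (0.83). It did not follow SLC7A11 (0.29) or NQO1 (-0.01) and ran against FTH1 (-0.42) and HMOX1 (-0.51). The day 4 libraries hold the larger deviations, and the points share library, depth and base composition. Of all expressed genes the most like BACH1 were PGM3 (0.999), ZMYM4 (0.998) and DNAJC6 (0.998), none of them on an antioxidant list used here. For HMOX1 they were LOC100507448 (0.980), ERCC2 (0.957) and DCPS (0.952).

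Next, each compound was compared with DMSO across both days. This compares 2 libraries with 2, with the day as a block, in a limma fit to log2(FPKM + 1) of all tested genes. The effect of a compound is averaged over the days, and a difference in it between the days goes into the residual. Opposite effects on the 2 days, as for TXNRD1 with NCD38, thus cancel and widen the interval. The comparison cannot show an effect limited to 1 day. Of the 10 genes 0 passed with any compound in limma, at an adjusted or at an unadjusted p below 0.05. The background was very low as well. Of all genes, 0.0092% were called higher and 0.0276% lower with NCD38, 0.0092% in each direction with NCD38-β2P4, and 0% and 0.0184% with NCD38-β2PIPP. An unadjusted limma p below 0.05 was found for 145, 32 and 62 of 10865 genes with these compounds. Log2 differences of the 10 genes ran from -0.43 to 0.06 for NCD38, from -0.13 to 0.47 for NCD38-β2P4 and from -0.29 to 0.53 for NCD38-β2PIPP. The 95% half-widths ran from 0.47 to 1.83, the widest being that of TXNRD1. For BACH1 the limma differences from DMSO were -0.10, 0.43 and 0.51 in this order of compounds, each ± 0.98. Over the 10 genes and 3 compounds the smallest limma adjusted p was 0.982. With the 3 compounds pooled, 0 of the 10 genes passed in limma (smallest unadjusted p 0.222), and BACH1 differed by 0.28 ± 0.78.

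The compounds share NCD38 and differ in the polyamide, so they were also compared with one another, in 3 pairs at the same dose label and days. No gene of the 10 passed in limma (over the 10 genes the smallest adjusted p values were 0.710, 0.530 and 1, and the smallest unadjusted p was 0.168). The background for these pairs was at most 0.0184% in either direction. NCD38-β2P4, with the all-pyrrole polyamide, differed from NCD38 in BACH1 by 0.54 ± 0.98 and in TXNRD1 by 0.90 ± 1.83. NCD38-β2PIPP, with the imidazole, differed from NCD38 by 0.61 ± 0.98 and 0.96 ± 1.83. Between the conjugates, that is for the exchange of 1 ring, the differences were -0.07 ± 0.98 and -0.06 ± 1.83 (NCD38-β2P4 minus NCD38-β2PIPP). These intervals include both 0 and changes of more than 2-fold, and do not show that the conjugates act alike. The TXNRD1 differences from NCD38 changed sign without the NCD38 library of day 4 (to -0.27 for NCD38-β2P4 and -0.21 for NCD38-β2PIPP), and for NCD38-β2PIPP also without its own day 4 library (to -0.02).

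**Figure D2:**
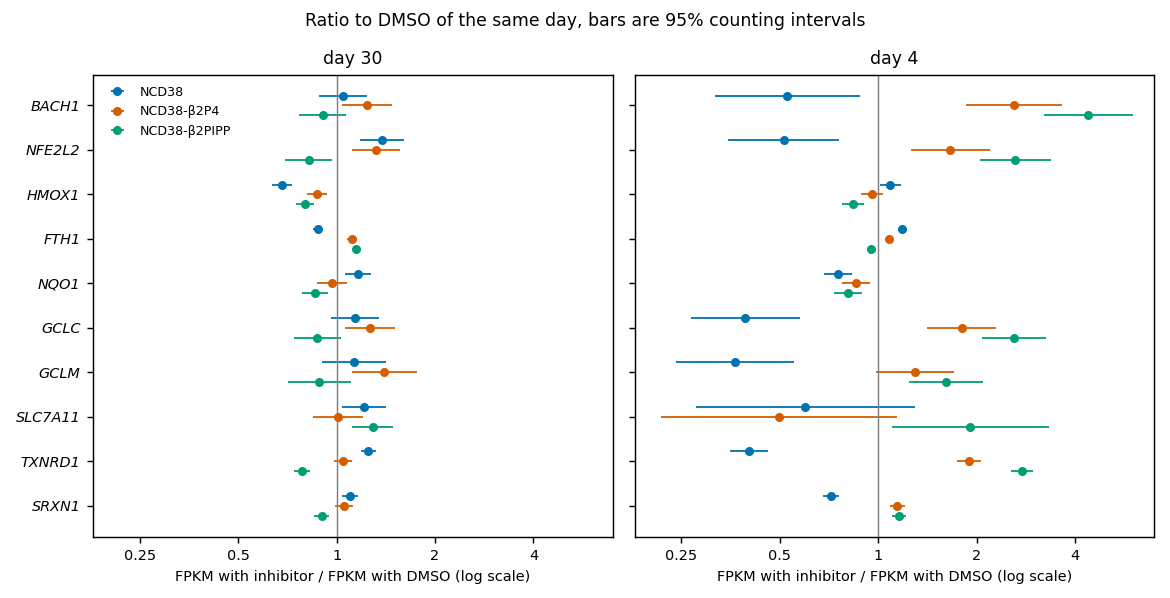
FPKM with each compound divided by FPKM with DMSO of the same day (log axis) for the 10 genes on day 30 (left) and day 4 (right), with 95% counting intervals from the estimated fragments and 1 library on each side of each ratio. On day 4 BACH1, NFE2L2, GCLC, GCLM and TXNRD1 are below 1 with NCD38 and above 1 with both conjugates, while on day 30 no ratio is past 2-fold. The GCLM interval with NCD38-β2P4 on day 4 includes 1, and base composition is not taken into account here.

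Within a day there is 1 library on each side and no test. On day 30 none of the 10 genes differed by 2-fold from DMSO on the log2(FPKM + 1) scale, and few of all genes did so. The shares higher and lower were 1% and 0.653% with NCD38, 0.506% and 0.497% with NCD38-β2P4, and 0.81% and 0.359% with NCD38-β2PIPP. On day 4, TXNRD1 with NCD38 was lower by this measure (log2 ratio -1.18), where 4.54% of all genes were (0.874% were higher). Without a pseudocount GCLM, GCLC and TXNRD1 were at 0.365, 0.393 and 0.402 times DMSO in this library. With NCD38-β2P4 no gene of the 10 passed, where 1.1% of all genes were higher and 0.81% lower, and TXNRD1 had a log2 ratio of 0.88 and BACH1 of 0.63. In plain FPKM, with no pseudocount, BACH1 was 2.61 times its DMSO value there and TXNRD1 1.90 times. With NCD38-β2PIPP, 4 of the 10 were at least 2-fold higher, where 10.3% of all genes were, and none was lower, where 0.838% were. These were TXNRD1 (1.40), BACH1 (1.11), NFE2L2 (1.07) and GCLC (1.01). HMOX1, FTH1 and NQO1 were below DMSO in this library, at -0.25, -0.07 and -0.29.

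These ratios moved with base composition. Over all genes on day 4, the median log2 ratio to DMSO with NCD38-β2PIPP was 0.777 in the most AT-rich of 5 equal bins of genes and -0.112 in the most GC-rich bin, and with NCD38 it was -0.344 and 0.242. With NCD38 the bin next to the most AT-rich was the lowest, at -0.582. BACH1 (38.2% GC), NFE2L2 (42.1%), TXNRD1 (43.8%) and GCLC (44.2%) lie in the low range, and HMOX1 (57.7%) in the high one. Among genes of the GC content of BACH1 the median ratio with NCD38-β2PIPP was 0.82, against 1.11 for BACH1 itself. For TXNRD1 these values were 0.54 and 1.40, and with NCD38 they were -0.60 and -1.18. For GCLC they were -0.60 and -0.70 with NCD38, and for NFE2L2 -0.54 and -0.58. With the trend subtracted, TXNRD1 kept log2 ratios of -0.54 (NCD38), 0.60 (NCD38-β2P4) and 0.85 (NCD38-β2PIPP), BACH1 had 0.10, 0.26 and 0.29, and none of the 10 genes was past 2-fold. NFE2L2 was at -0.02, 0.19 and 0.33 and GCLC at -0.07, 0.31 and 0.46. GCLM was at -0.26, -0.16 and -0.41, so that it lay below DMSO with the conjugates too. NQO1, whose GC content is the same as that of TXNRD1, then had 0.24, -0.49 and -0.85. On day 30 the bins differed less (0.213 to -0.0619 with NCD38-β2P4, the widest), and HMOX1 stayed below DMSO with it subtracted, at -0.53, -0.16 and -0.31. The part of base composition in the day 4 differences was not tested.

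Finally, day 30 was compared with day 4 over the 4 treatments, in limma with the treatment as a block. Day cannot be told apart from the culture, the collection or the library preparation. Of the 10 genes 3 rose, SLC7A11, NFE2L2 and BACH1, and none fell, where 30.2% of all genes rose and 31.7% fell. The 3 of 10 called higher are near this background. SLC7A11 rose from 0.124 ± 0.0796 to 1.93 ± 0.249 FPKM (SD, 4 libraries per day, which differ in treatment), by 1.38 ± 0.33 on the log2(FPKM + 1) scale (95% interval, limma adjusted p = 0.00081). NFE2L2 rose from 3.05 ± 1.92 to 7.12 ± 1.67 FPKM (log2 1.11 ± 0.94, limma adjusted p = 0.046), and BACH1 from 1.11 ± 0.914 to 2.79 ± 0.374 FPKM (log2 0.94 ± 0.70, limma adjusted p = 0.030). TXNRD1 differed by 0.94 ± 1.29, GCLC by 0.68 ± 0.85 and GCLM by 0.37 ± 0.58, with limma adjusted p of 0.16, 0.13 and 0.21. The differences of SRXN1 (-0.40 ± 0.45), FTH1 (-0.36 ± 0.35), NQO1 (-0.12 ± 0.36) and HMOX1 (0.09 ± 0.37) did not pass either, with limma adjusted p of 0.098, 0.069, 0.49 and 0.60. The days did not overlap for 2 genes higher on day 30 (BACH1 and SLC7A11, background 29.5%) and for 1 lower (FTH1, background 33.1%). The calls of BACH1 and NFE2L2 were lost without either DMSO, either NCD38 or either NCD38-β2P4 library (limma adjusted p of 0.073 to 0.123 for BACH1 and 0.090 to 0.152 for NFE2L2), and that of SLC7A11 was kept in every such fit. Without either NCD38-β2PIPP library GCLC was called as well, at 1.02 (limma adjusted p = 0.032 or 0.033). Without either NCD38 library SRXN1 was called lower, at -0.59 (limma adjusted p = 0.0073 or 0.0084), and without that of day 30 HMOX1 was called higher, at 0.25 (limma adjusted p = 0.046). Without a treatment block FTH1 was called lower (limma adjusted p = 0.024).

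This difference also followed base composition over the whole transcriptome. The median log2 difference between the days was 1.34, 0.563, -0.218, -0.658 and -0.738 from the most AT-rich to the most GC-rich of these 5 bins. SLC7A11 (35.4% GC), GCLM (37.3%) and BACH1 lie among the lowest 7.86% of expressed genes by GC content. Genes like SLC7A11 and BACH1 in GC content had median differences of 1.55 and 1.40, both above those of the genes themselves on the log2(FPKM + 1) scale. This scale compresses the change of SLC7A11, which was 3.24 with a pseudocount of 0.1. With the trend subtracted, SLC7A11 was at -0.20 and NFE2L2 at 0.17, neither called. BACH1 turned to -0.48 and was called lower (limma adjusted p = 0.016). GCLM was then lower by 1.05 (limma adjusted p = 0.00098) and NQO1 was at -0.52 (limma adjusted p = 0.027). HMOX1 was the only one of the 10 to be called higher, by 0.81 (limma adjusted p = 0.0028). With a pseudocount of 0.1 as well, BACH1 was at -0.43 and not called (limma adjusted p = 0.13). The calls of GCLM, NQO1 and HMOX1 were kept there. Over all alternatives, most of them without the subtraction, limma adjusted p ran from 0.0059 to 0.13 for BACH1. It ran from 0.00098 to 0.51 for GCLM, 0.027 to 0.85 for NQO1 and 0.0024 to 0.94 for HMOX1. Some of these fits had the opposite sign for BACH1 and GCLM. The direction between the days therefore depends on the subtraction for BACH1, GCLM and SRXN1. For SLC7A11 it depends on the pseudocount as well. With a pseudocount of 0.1 and the trend subtracted SLC7A11 stayed higher on day 30, at 0.77, and was not called. The direction was kept by TXNRD1 (0.54), GCLC (0.28), NFE2L2, HMOX1, NQO1 and FTH1.

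**Figure D3:**
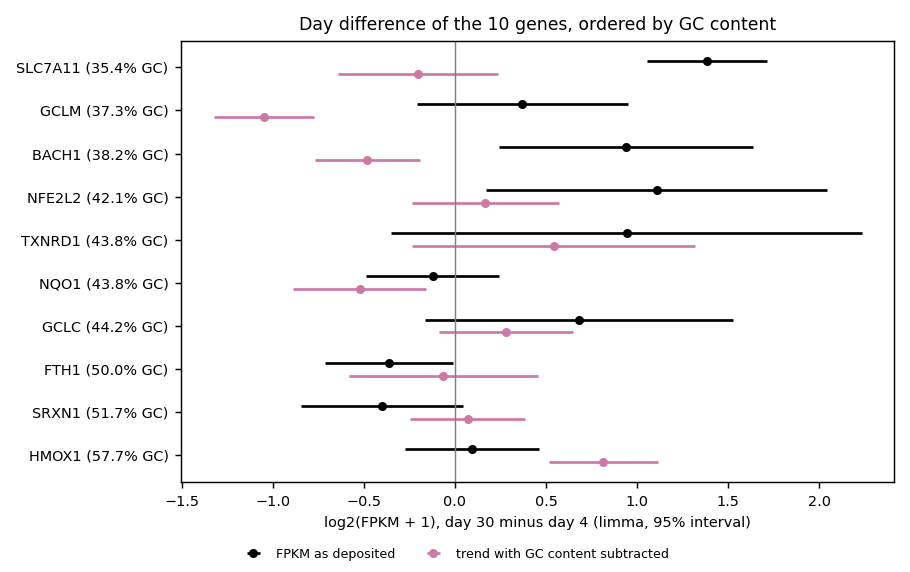
Difference between the days in log2(FPKM + 1), day 30 minus day 4, from limma for the 10 genes ordered by GC content, from FPKM as deposited (black) and with the trend with GC content subtracted (pink). Points are estimates and bars 95% intervals, and BACH1 changes from 0.94 to -0.48 while HMOX1 changes from 0.09 to 0.81.

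The rest of the pathway was followed in 7 lists of 90 genes, of which 77 were tested. Of these, 0 passed in any of the 7 comparisons of treatments (limma, adjusted p below 0.05), and 9 of 77 had an unadjusted p below 0.05 in at least 1 of them, as had 8.27% of all 10865 genes. Between the days, among the CNC factors, small MAF proteins and the KEAP1 complex, 5 of 11 rose and 6 fell (median log2 -0.99, over all genes -0.02). KEAP1 fell from 62.1 to 26.6 FPKM on average, with 58.8 to 65.8 on day 4 and 25.5 to 27.7 on day 30 (log2 -1.19 ± 0.25, limma adjusted p = 0.00059). SQSTM1, which codes for p62, an adaptor that takes KEAP1 to autophagy, fell from 517 to 215 FPKM, and the small MAF gene MAFF from 29.0 to 11.0. MAFG fell from 17.1 to 8.06 and MAFK from 11.6 to 5.42 FPKM, and NFE2L1, an NRF2 relative, fell from 31.7 to 13.6. Both other subunits of the KEAP1 ligase rose, CUL3 from 2.01 to 7.05 FPKM and RBX1 from 31.6 to 84.5, as did NFE2L3, from 0.464 to 2.33. BACH2, the other BACH factor, was listed at 0 in all 8 libraries. With the GC trend subtracted KEAP1, SQSTM1, MAFF and NFE2L1 remained called lower (-0.41, -0.55, -0.55 and -0.53) and RBX1 and NFE2L3 called higher (1.53 and 1.18). CUL3 (37.6% GC) dropped to 0.09, MAFG to -0.28 and MAFK to -0.20, and none of these was then called.

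For glutathione synthesis and use, 6 of 18 rose and 4 fell (median 0.22). CHAC1, which breaks glutathione down, rose from 7.14 to 19.9 FPKM (log2 1.49 ± 0.66, limma adjusted p = 0.0052) in spite of a GC content of 61.3%, and by 2.19 with the trend subtracted. GPX8, a glutathione peroxidase family member of the endoplasmic reticulum, rose from 3.09 to 10.4 FPKM. GSTP1, GPX4 and GSS fell (891 to 490, 475 to 267 and 134 to 77.1 FPKM), but none of these was called with the trend subtracted (-0.04, -0.10 and -0.16). In the thioredoxin and peroxiredoxin list 6 of 15 rose and 5 fell (median -0.02). Thioredoxin itself, TXN, rose from 457 to 2226 FPKM (0.79 with the trend subtracted, but 1 of its 16 alternatives, which also lowers the pseudocount to 0.1, turned its sign and lost the call, limma adjusted p = 0.675), glutaredoxin GLRX from 295 to 961 (0.83) and the mitochondrial peroxiredoxin PRDX3 from 26.4 to 61.6 (0.27, not called). PRDX2 fell from 864 to 248 FPKM (-1.05), the mitochondrial thioredoxin TXN2 from 158 to 69.0 (-0.45) and PRDX4 from 177 to 81.5 (-0.81).

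Genes of NADPH supply fell in 4 of 8 and rose in 1 (median -0.62). The pentose phosphate enzymes PGD and TKT fell from 235 to 99.2 and from 429 to 171 FPKM, and with the trend subtracted both were still called lower (-0.93 and -0.58). The mitochondrial folate enzyme MTHFD2 rose from 34.5 to 62.1 FPKM, but turned to -0.13 with the trend subtracted. For heme breakdown and iron, 1 of 12 rose and 3 fell (median -0.05). HMOX2, the constitutive heme oxygenase, fell from 73.9 to 37.5 FPKM (-0.25 with the trend subtracted, not called), BLVRB, a biliverdin reductase, from 132 to 86.3 (0.11, not called) and ACO1, the iron regulatory protein 1, from 28.6 to 13.8 (-1.20). IREB2, the iron regulatory protein 2, rose from 1.14 to 2.73 FPKM and was called lower with the trend subtracted (-0.54). Among genes of quinone and carbonyl detoxification, 0 of the 8 tested rose and 3 fell (EPHX1 from 19.2 to 6.44 FPKM, CBR1 from 94.4 to 56.3 and TRIM16L from 4.98 to 3.03, median -0.28). With the trend subtracted EPHX1 was still called lower (-0.72), and CBR1 (-0.15) and TRIM16L (-0.28) were not called. The other 9 of this list, among them the NRF2 targets AKR1B10, AKR1C1 and ALDH3A1, had a mean under 1 FPKM and were not tested. The list of superoxide and peroxide enzymes also held PON2, which codes for a paraoxonase. Of its 5 genes 2 rose, SOD1 from 277 to 421 FPKM and PON2 from 12.6 to 36.5, and none fell (median 0.51). With the trend subtracted PON2 was still called higher (0.61) and SOD1 was not (0.20). Of the 31 list genes chosen for the size of their change, 15 were called in the same direction under every alternative that tested them, among them KEAP1, SQSTM1, MAFF, RBX1, NFE2L3, CHAC1, GPX8, GLRX, PRDX2, TKT and PGD. Shares of genes called on each list stand beside a background of 30.2% higher and 31.7% lower.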

How the data were processed

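RNA-seq of RKO cells was analysed from 8 of 38 samples (the other 30, for ChIP, were not used here), with 1 library for each of 4 treatments on each of 2 days. The authors prepared stranded mRNA libraries and estimated FPKM with Cufflinks, and deposited FPKM per gene. The study's methods name TopHat as aligner, whereas the submitters' processing notes list HISAT2 2.2.1.0 and hg19. FPKM holds no counts, so depth was estimated from the low values and counting intervals rest on this estimate.

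Of 25594 entries, 90 with a repeated name were left out. Genes with a mean FPKM of at least 1 were tested with limma 3.58.1 (R 4.3.3) on log2(FPKM + 1), with day and treatment as additive terms (3 residual degrees of freedom) and Benjamini-Hochberg adjustment at 0.05. Fold changes on this scale are smaller than the true ones for low genes. With 1 library per condition, the residual of the fit holds the disagreement of treatment differences between the days, together with the noise of single libraries. The p-values therefore do not measure the spread of replicates, and nothing says that libraries came from separate cultures. Calls within 1 day have no test and use a 2-fold threshold. The fit was checked on simulated data for the comparison of the days, with 200 of 10865 genes changed. It recovered 47 of 100 genes changed by log2 1 and 79 of 100 changed by log2 2, with 9 false calls. The simulated noise was independent between genes, and there was no trend with GC content between the days. In the data 30.2% of genes were called higher and 31.7% lower, so these rates may not hold there. The comparisons of treatments were not checked in this way.

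GC content came from GENCODE release 44 on GRCh37 (93.7% of tested genes matched), and its trend over 20 bins was subtracted in each library as an alternative. Promoters came from RefSeq. The 10 genes and the lists were chosen with earlier results of these data known. The genes named are the 10, the KEAP1 complex, and for each list up to 3 called genes in each direction with the largest change, of which 1 is not reported here. Alternatives changed the pseudocount, the scaling, the filter, the block, the DMSO library and the libraries included. Python 3.11.15 with pandas 2.3.3 was used for the rest.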

Additional observations from a re-analysis of the deposited data

Results flagged for a closer look

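The ratio to DMSO lay on opposite sides of 1 on the 2 days, beyond the 95% counting interval on both, in 10 of 30 pairs of gene and compound. Over all 9947 expressed genes with a known length and values above 0, 18.5% of such pairs did so (30.6% for NCD38, 6% for NCD38-β2P4, 18.8% for NCD38-β2PIPP), and the interval is narrower for highly expressed genes. The difference between the days was not tested, since each ratio rests on 1 library per side. With NCD38, NFE2L2 was 1.38 times DMSO on day 30 and 0.514 times on day 4, TXNRD1 1.25 and 0.402 times, NQO1 1.16 and 0.754 times, and SRXN1 1.10 and 0.717 times. HMOX1 and FTH1 went the other way with NCD38, at 0.679 and 0.874 times DMSO on day 30 and 1.09 and 1.18 times on day 4. With NCD38-β2PIPP, NFE2L2 was 0.820 times DMSO on day 30 and 2.63 times on day 4, TXNRD1 0.783 and 2.75 times and SRXN1 0.900 and 1.16 times, while FTH1 was at 1.14 and 0.950 times. No pair with NCD38-β2P4 did so. In the same libraries the day 4 ratios moved with GC content over all genes, and the part of this was not tested. None of the 20 groups of 4 libraries held a single library far from the others by Dixon's ratio, where chance flags about 1 group in 20.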

How the results depend on the processing

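Libraries were matched by treatment between the days and by day between the treatments. They could not be paired by replicate, because the labels carry no replicate numbers to pair by. The comparison of the days has the treatment as its block, and the fit without that block is among the alternatives. Over 917 values under alternatives, 674 kept their direction and side of the threshold or moved within the allowed range. No gene of the 10 was called in a comparison of treatments under any alternative.

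Between the days, the genes of the 10 called higher went from 3 to 1 with no filter on low FPKM, with a minimum of 1 FPKM in all 8 libraries (which tests 6 of the 10), with the GC trend subtracted, and with a pseudocount of 0.1 and the trend subtracted. Those called lower went from 0 to 1 with median-ratio scaling or no treatment block, to 3 with the GC trend subtracted and to 2 with a pseudocount of 0.1 as well. Leaving out 1 library at a time gave 1 to 4 higher and 0 to 1 lower, and 2184 to 3580 genes higher and 2382 to 3975 lower over all genes. Without either library of a treatment the log2 differences between the days were the same, so such fits are not separate checks of them. The minimum of 1 FPKM in all 8 libraries left 1632 genes higher, from 7915 tested. Genes of the 10 whose days did not overlap were 1 above and 2 below with the GC trend subtracted, and 2 to 4 above and 1 to 2 below when 1 library was left out. With the trend subtracted the sign turned for BACH1 (-0.48, and -0.43 with a pseudocount of 0.1), GCLM (-1.05 and -1.37), SRXN1 (0.069 and 0.13) and SLC7A11 (-0.20, but not with a pseudocount of 0.1).

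For treatments, genes called over the whole table under that minimum were 0 in all 7 comparisons. With no filter they were 2 for NCD38, 1 for NCD38-β2P4, 2 for the pooled compounds and 0 for each pair of compounds. For NCD38-β2P4 they were 4 with a pseudocount of 0.1, 1 with the GC trend subtracted and 4 with both. For NCD38-β2PIPP all of these gave 1. For the pooled compounds they were 2 with a pseudocount of 0.1, with and without the trend subtracted, and 2 with median-ratio scaling. NCD38-β2P4 against NCD38 gave 2 with a pseudocount of 0.1, and NCD38-β2PIPP against NCD38 gave 1 with the trend subtracted. Leaving out 1 library gave 0 to 21, 0 to 20, 0 to 27 and 1 to 23 genes for NCD38, NCD38-β2P4, NCD38-β2PIPP and the pooled compounds, and 0 to 13, 0 to 27 and 0 to 27 for NCD38-β2P4 and NCD38-β2PIPP against NCD38 and the pair of conjugates. Median-ratio scaling moved the median of all genes from -0.08 to 0.04 for NCD38 and from 0.10 to 0.00 for NCD38-β2PIPP.

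The log2 differences of TXNRD1 and BACH1, not called in any fit, turned sign when 1 library was left out. For NCD38 against DMSO, TXNRD1 ranged from -1.60 to 0.74 (without its day 4 library) and BACH1 from -0.52 to 0.32 (without its day 4 library), and BACH1 was at 0.12 without the DMSO day 30 library. For NCD38-β2PIPP against DMSO, TXNRD1 ranged from -0.45 to 1.51 and BACH1 from -0.087 to 1.10, both lowest without its day 4 library, as was TXNRD1 with the compounds pooled (-0.064 to 0.54). Against NCD38, TXNRD1 ranged from -0.27 to 2.07 for NCD38-β2P4 and from -0.21 to 2.13 for NCD38-β2PIPP, lowest without the NCD38 day 4 library, and was at -0.024 for the latter without the NCD38-β2PIPP day 4 library. For NCD38-β2P4 against NCD38-β2PIPP, TXNRD1 ranged from -1.04 to 0.92 and BACH1 from -0.66 to 0.52, highest without the NCD38-β2PIPP day 4 library, and TXNRD1 was at 0.31 without the NCD38-β2P4 day 30 library. With the trend subtracted BACH1 was at 0.043 here (0.068 with a pseudocount of 0.1, where TXNRD1 was at 0.0058).

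Within a day, with the DMSO library exchanged for that of the other day, the genes of the 10 past 2-fold were 4, 5 and 2 on day 30 and 5, 1 and 1 on day 4 for NCD38, NCD38-β2P4 and NCD38-β2PIPP, and with NCD38-β2PIPP on day 4 BACH1 turned to -0.15 and NFE2L2 to -0.16. On day 4, NCD38 gave 3 with a pseudocount of 0.1 and 0 with median-ratio scaling or the GC trend subtracted. NCD38-β2P4 gave 1 with a pseudocount of 0.1, and NCD38-β2PIPP gave 1 with median-ratio scaling and 0 with the trend subtracted. The causes were not tested. Depth limits SLC7A11 most, with fewer than 32 fragments in each day 4 library.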
